A study of Mus musculus with 6 samples.

Results

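The genes described here are 34 mouse genes of sterol and fatty acid synthesis: regulators of the SREBP transcription factors, enzymes of the mevalonate pathway, enzymes from squalene to cholesterol, enzymes that make, desaturate or activate fatty acids, and proteins that carry sterols. They were listed by name, and all probes whose gene symbol in the signal table is one of these names were taken, with SC4MOL as the older name of Msmo1. In this way 32 of the 34 were reached through 60 probes, among 30854 gene names on the array. HMGCS1 and FDFT1 were not analysed here. Probes stayed in if some group had a detection p under 0.05 on both of its arrays, as 44 of the 60 did, so that 30 members were tested among 11872 genes. FASN, the fatty acid synthase, was detected on 1 of 6 arrays and ABCA1, a sterol exporter, on 0 of 6, and neither was tested.

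PA6 is a mouse stromal cell line from bone marrow. Monolayers with no ES cells on them spent 3 h without any added growth factor (-GFs), with FGF2 at 20 ng/ml or with BMP4 at 10 ng/ml, and each group had 2 arrays. The labels describe a biological replicate as 1 untreated, 1 FGF2 and 1 BMP4 well. With 1 cell line, 1 time and 2 wells per treatment, the spread between wells stands for all spread, and with 2 arrays in each of 2 groups an exact permutation test has a smallest two-sided p of 0.333.

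The arrays of -GFs had median intensities of 168.1 and 156.1, those of FGF2 161.5 and 162.6, and those of BMP4 153.4 and 167.8, and probes detected were 16459 and 15509, 16124 and 15844, and 16330 and 15726 in the same order. Of 11 stromal markers all but KITL were detected on each array, and the ES cell list gave only POU5F1, the neural list no gene, the haematopoietic list only CD14 and the endothelial list TEK with KDR on 4 arrays. Mature adipocyte markers differed between replicates of all groups: 3, 3 and 4 of the 8 with a probe were detected on the replicate 1 arrays of -GFs, FGF2 and BMP4, and 7, 6 and 7 on the replicate 2 arrays. ADIPOQ was undetected on each replicate 1 array and read 11.3, 10.8 and 11.2 in log2 on the replicate 2 arrays, with PPARG detected on all 6 and FABP4 on 0. In bulk RNA, more cells of a type cannot be told from more RNA per cell.

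Cells hold their sterol content steady through the SREBP proteins, which are made as membrane proteins of the endoplasmic reticulum. When sterols are scarce, SCAP carries them to the Golgi, where proteases free the part that enters the nucleus and switches on genes of sterol and fatty acid synthesis, and when sterols are plentiful the INSIG proteins hold SCAP back. SREBF2 is known mainly for sterol genes and SREBF1 for fatty acid genes, and NF-Y, which binds CCAAT boxes, often sits beside them on promoters.

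After 3 h of FGF2, part of the set was higher than in -GFs, including 3 enzymes between squalene and cholesterol and the acyl-CoA synthetase ACSL3. ACSL4, another synthetase, also passed, but its probe was retained through the FGF2 arrays alone. A probe of ACSL4 detected on all 6 arrays gave 0.38 (adjusted p 0.24). Of the 5 regulators only SREBF2 passed (20%), and only with the replicate block, where 18.1% of all genes passed as higher. 6 of the 30 members rose at an adjusted p under 0.1, against 6.03% of all genes tested, and 2 fell, against 5.78%. The 6 are ACSL4, HSD17B7, CYP51, SQLE, ACSL3 and FDPS, and the 2 are ACAT2 and NPC1. Of these, ACSL4, HSD17B7 and CYP51 were called modulated with a log2 fold change over 1, so 3 members were called higher, against 2.28% of all genes. By limma 0 members were called lower, against 1.25%; 3 had an unadjusted p under 0.05 in that direction, 0 of them over the fold threshold, and Student's t-test gave 0 over that threshold. Over the 30 members the median log2 fold change was 0.24, with 20 higher and 10 lower, where all genes had a median of -0.02 with 5642 higher and 6230 lower. The members' median was 0.11 without -GFs replicate 1, 0.15 without -GFs replicate 2 and 0.14 with median scaling, where that of all genes was -0.05, -0.05 and -0.10. The median size of the change was 0.30 for members and 0.24 for all genes. The counts and medians favour genes high in FGF2, since ACSL4 and IDI1 were retained through the FGF2 arrays alone, so they are a description and no evidence for the set. Among genes detected on all 6 arrays, a filter that treats the groups alike, 5 of 28 members rose (17.9%, against 6.43% of all genes). In the other direction 2 fell (7.14%, against 6.44%). These shares are also a description and no evidence for the set, since the members were chosen with earlier results of these data known.

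With replicate number as a block, 11 members passed as higher, against 18.1% of all genes, and 3 as lower, against 19.6%. In that fit SC4MOL and STARD4 joined the called, which made 5 called higher against 2.51%, and still 0 were called lower against 1.44%. Without the block, the 8 members no longer passed when either FGF2 array was left out: without FGF2 replicate 1 the adjusted p of the 8 members ran from 0.101 to 0.371, and without FGF2 replicate 2 from 0.14 to 0.342, when a single FGF2 array has no spread of its own and genes passed as higher went from 716 to 122 and 71. The changes kept their direction over the arrays left out, at 0.95 to 1.14 for CYP51, 1.18 to 1.97 for HSD17B7 and 1.65 to 2.42 for ACSL4. Those of SC4MOL and STARD4, called with the block, ran from 0.82 to 2.02 and from 0.53 to 1.49.

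**Figure D1:**
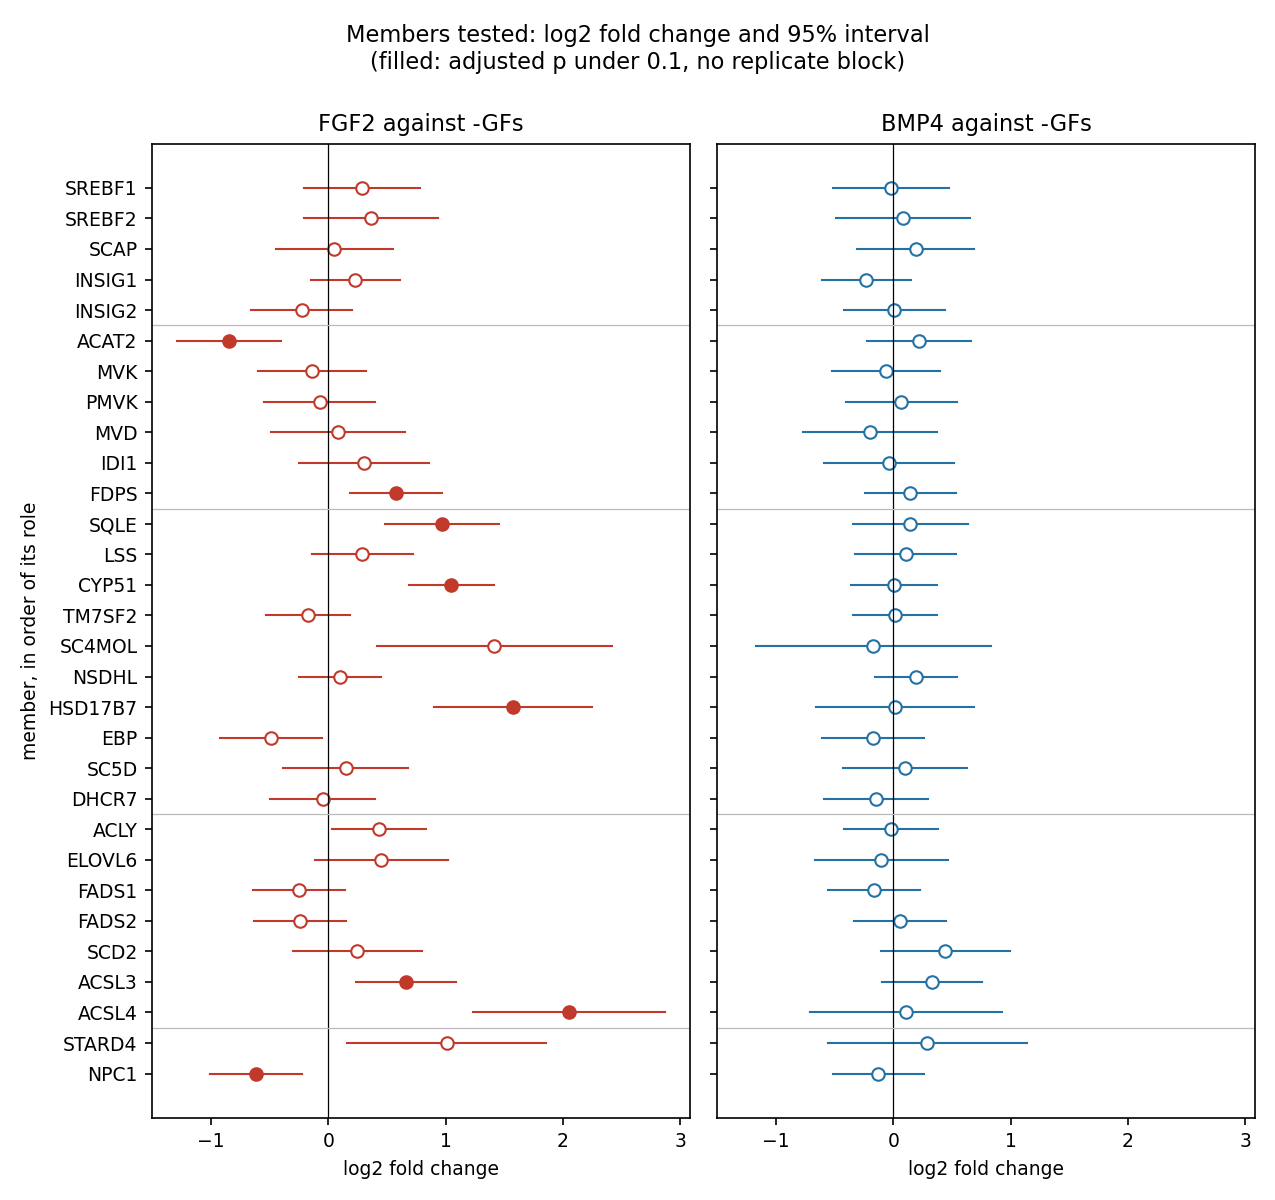
Log2 fold change of the 30 tested members with FGF2 and with BMP4 against -GFs, with 95% intervals, in order of role. Filled points have an adjusted p under 0.1 without the block.

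The regulators were detected on all arrays. By limma without the block 0 of the 5 passed, against 6.03% of all genes as higher and 5.78% as lower, with 0 at an unadjusted p under 0.05. The block added 1, SREBF2 (20%), against 18.1% of all genes as higher. These counts are too few to set apart from the background. SREBF2, the SREBP known for sterol genes, read 9.34 and 9.98 in -GFs, 9.97 and 10.09 after FGF2 and 9.58 and 9.91 after BMP4. The lowest arrays were replicate 1 of -GFs and then of BMP4, and -GFs replicate 2 lay between the FGF2 arrays. The log2 fold change was 0.37 (95% interval -0.20 to 0.93, adjusted p 0.411, 0.0743 with the block), and a second probe gave 0.13. Without -GFs replicate 1 the change was 0.05 and without -GFs replicate 2 it was 0.68. SREBF1, the SREBP known for fatty acid genes, read 7.72 and 8.16 with -GFs, 8.04 and 8.41 with FGF2 and 7.93 and 7.91 with BMP4. Replicate 2 was the higher array in the first 2 groups, which overlapped, and the change was 0.29 (-0.21 to 0.78, adjusted p 0.461).

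SCAP, which escorts the SREBPs, read 9.43 and 9.89, then 9.68 and 9.75 with FGF2 and 9.68 and 10.03 with BMP4, so that the FGF2 arrays lay between the -GFs arrays, the change was 0.05 (-0.44 to 0.55) and the replicate pairs went opposite ways (0.24 and -0.14). INSIG1, a sterol-dependent brake on SCAP, read 9.26 and 8.98 on the untreated arrays, 9.31 and 9.39 after FGF2 and 8.93 and 8.85 after BMP4. Both FGF2 arrays were above all others, though -GFs replicate 1 was close behind. The change was 0.23 (-0.15 to 0.61, adjusted p 0.438), and 2 further probes gave 0.34 and 0.44. INSIG2, the other brake, read 10.21 and 9.90 with -GFs, 9.99 and 9.68 with FGF2 and 10.09 and 10.05 with BMP4. Its lowest array was FGF2 replicate 2, the -GFs and FGF2 groups overlapped, and the change was -0.23 (-0.66 to 0.20), with -0.44 at a second probe.

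In the mevalonate pathway, which leads from acetyl-CoA to farnesyl diphosphate, 1 of 6 members rose, against 6.03% of all genes, and 1 fell, against 5.78%, too few to set apart from the background. ACAT2 joins acetyl-CoA units at its entry. Its log2 values were 10.40 and 10.73 in -GFs, 9.85 and 9.58 in FGF2 and 10.68 and 10.88 in BMP4. The lowest of the 6 were the FGF2 arrays, with no overlap. ACAT2 fell by 0.85 (standard error 0.19, adjusted p 0.0485, 1.8-fold down), short of the fold threshold. Without -GFs replicate 1 it was the only member called lower, at -1.01, and without -GFs replicate 2 it no longer passed (0.179).

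FDPS, which makes farnesyl diphosphate, read 11.47 and 11.66 in -GFs, 12.25 and 12.03 in FGF2 and 11.62 and 11.79 in BMP4. The FGF2 arrays were higher than the rest. FDPS rose by 0.58 (standard error 0.16, 1.49-fold), near the threshold at an adjusted p of 0.0923, while a second probe gave 0.18 (0.829). It did not pass without any 1 of the arrays: 0.235 and 0.168 without those of -GFs, 0.123 and 0.128 without those of BMP4. MVK and PMVK, the kinases of mevalonate and of its phosphate, MVD, the decarboxylase, and IDI1, the isomerase, did not pass. Their changes ran from -0.14 for MVK (-0.60 to 0.32) to 0.31 for IDI1 (-0.25 to 0.86), which was detected on 1 of 2 -GFs arrays.

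From squalene to cholesterol 3 of 10 members rose, against 6.03% of all genes. None of the 10 fell by limma without the block, against 5.78% of all genes. EBP had an unadjusted p under 0.05 in that direction, as did 1441 of 11872 genes. Neither count of falls can be set apart from the background. SQLE, the epoxidase that starts this stretch, read 10.70 and 11.11 in -GFs, 11.68 and 12.07 in FGF2 and 11.08 and 11.01 in BMP4. Both FGF2 arrays were above all others. SQLE rose by 0.97 (standard error 0.21, adjusted p 0.0441, 1.96-fold), a second probe gave nearly the same change (adjusted p 0.0198), and without -GFs replicate 1 the adjusted p was 0.138.

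CYP51, SC4MOL and HSD17B7 take methyl groups off lanosterol, and the bases upstream of their starts are shown because these genes had the largest sterol enzyme changes, with those of ACAT2, which went the other way. Capitals mark CCAAT, the box bound by NF-Y, on either strand, ATTGG being its reverse complement. The sequences are from RefSeq promoters of GRCm38.p6, all on the minus strand: CYP51 at chr5:4104698-4104897, SC4MOL at chr8:64733579-64733778, HSD17B7 at chr1:169969243-169969405, where bases nearer the start lie inside another transcript, and ACAT2 at chr17:12960726-12960925.
CYP51: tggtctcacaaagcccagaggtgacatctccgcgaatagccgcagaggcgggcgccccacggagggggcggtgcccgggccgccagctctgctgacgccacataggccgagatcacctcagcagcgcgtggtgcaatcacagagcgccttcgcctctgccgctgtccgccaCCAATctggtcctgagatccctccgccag
SC4MOL: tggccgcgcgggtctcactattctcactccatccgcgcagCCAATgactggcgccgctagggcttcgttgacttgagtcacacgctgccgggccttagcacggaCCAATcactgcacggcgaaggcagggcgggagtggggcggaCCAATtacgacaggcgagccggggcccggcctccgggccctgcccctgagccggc
HSD17B7: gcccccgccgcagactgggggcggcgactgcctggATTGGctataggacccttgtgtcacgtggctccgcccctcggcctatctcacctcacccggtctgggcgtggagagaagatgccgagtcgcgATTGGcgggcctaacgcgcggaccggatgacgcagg
ACAT2: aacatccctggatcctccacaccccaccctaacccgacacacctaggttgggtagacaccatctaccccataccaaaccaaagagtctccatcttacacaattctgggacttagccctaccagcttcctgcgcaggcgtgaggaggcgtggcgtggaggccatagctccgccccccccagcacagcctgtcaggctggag
The CYP51 bases hold 1 match, those of SC4MOL 3, those of HSD17B7 2 and those of ACAT2 0. In promoters of 300 bases, ACSL3, SREBF2 and ACLY, which passed as higher with FGF2 in either fit, had 1 match each. ACSL4 and ELOVL6, also higher, had 0, and EBP, lower with the block, had 2. HSD17B7 had 3 in its 300 bases. SQLE, FDPS and STARD4, also higher, and NPC1, lower, had no promoter among those searched. Whether matches go with the direction of change was not tested.

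Among promoters of 300 bases (250 before the start and 50 after), CCAAT was found on either strand for 19 of the 24 tested members with a promoter (79.2%) and for 11096 of 27025 genes (41.1%). The sterol regulatory motif TCACNCCAC, again on both strands, was found for 0 of the 24 tested members with a promoter and for 388 of 27025 genes (1.44%), and its only match among the 27 members with a promoter was in a gene not tested. Only exact matches to these patterns were counted, so a lack of sterol regulatory sites near the members was not shown. These matches are descriptions of sequence, and binding was not tested.

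**Figure D2:**
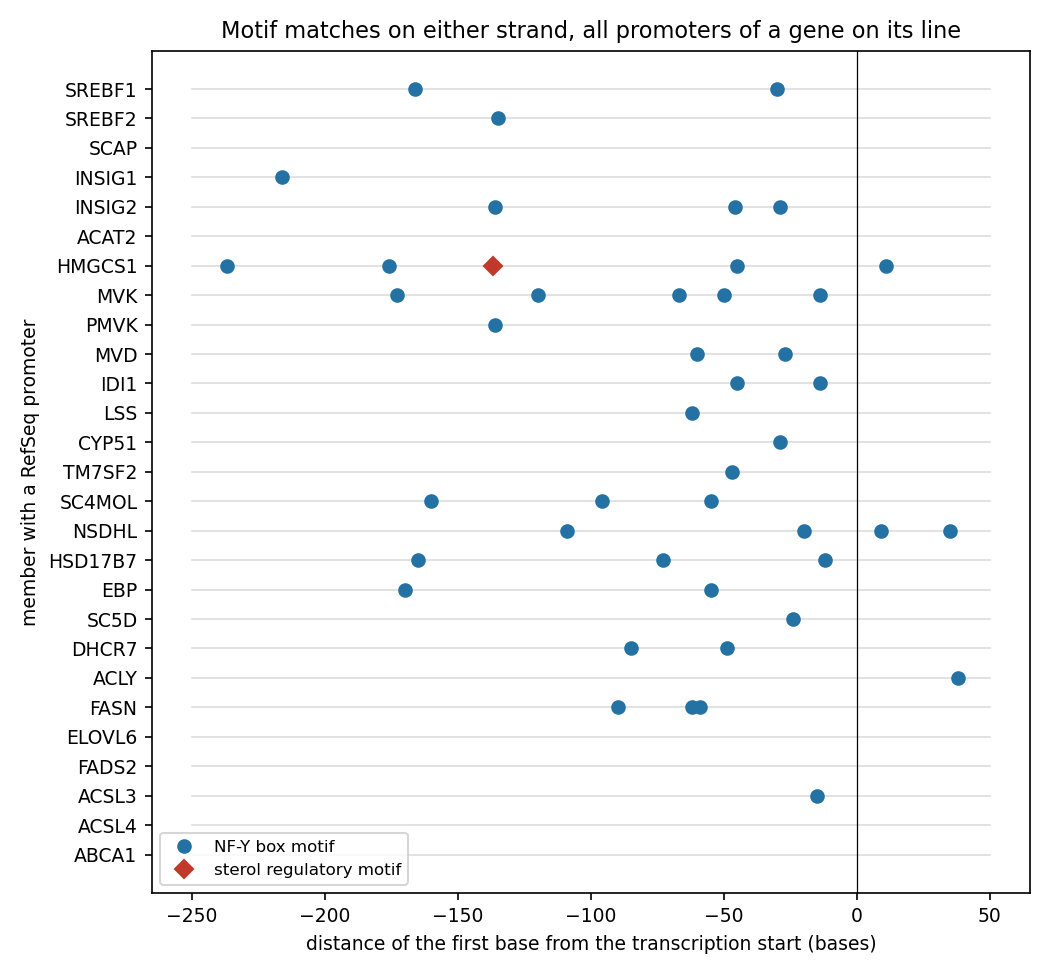
Distance from the transcription start of each motif match in the promoters of 27 members. Circles mark the NF-Y box and diamonds exact matches to the sterol regulatory motif TCACNCCAC.

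CYP51, the lanosterol demethylase, read 10.02 and 9.95 with -GFs, 10.94 and 11.13 with FGF2 and 9.91 and 10.06 with BMP4. The FGF2 arrays stood apart from the 4 others, which lay close together. CYP51 rose by 1.05 (standard error 0.15, adjusted p 0.0162, 2.07-fold), by 0.92 and 1.18 in the replicate pairs, and its call rests on a change just over the fold threshold. HSD17B7, a ketoreductase of the same stretch, read 10.26 and 9.48, then 11.55 and 11.33 with FGF2 and 10.09 and 9.67 with BMP4. Again both FGF2 arrays were highest, with replicate 2 lower than replicate 1 in each group. HSD17B7 rose by 1.57 (standard error 0.28, adjusted p 0.0285, 2.97-fold).

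SC4MOL, the methylsterol oxidase, read 10.85 and 9.66 in -GFs, 11.70 and 11.65 in FGF2 and 10.51 and 9.66 in BMP4. Both FGF2 arrays were highest and alike, while the other groups spread by replicate. Its change of 1.42 (standard error 0.42, 2.67-fold, pairs 0.85 and 1.99) missed the threshold at an adjusted p of 0.103, and with the block it was called (0.0000296). Without -GFs replicate 1 it also passed (0.0611), and without -GFs replicate 2 the change was 0.82. EBP, a sterol isomerase, read 10.63 and 10.67 in -GFs, 10.05 and 10.27 in FGF2 and 10.28 and 10.67 in BMP4. The FGF2 arrays were the lowest, with BMP4 replicate 1 at nearly the same level. The change was -0.49 (-0.92 to -0.05, adjusted p 0.171, 0.0155 with the block).

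The other members here did not pass: LSS, the cyclase that makes lanosterol, TM7SF2, a sterol reductase, NSDHL, a dehydrogenase of the demethylation steps, SC5D, a desaturase, and DHCR7, the last reductase. Their changes ran from -0.17 for TM7SF2 (-0.53 to 0.19) to 0.29 for LSS (-0.14 to 0.72), and 4 probes of NSDHL gave -0.13 to 0.10. LBR, a listed pathway gene outside the 34 whose product can carry out the same reduction as TM7SF2, read 9.39 and 9.30 with -GFs, 10.18 and 10.35 with FGF2 and 9.42 and 9.0 with BMP4. No other array reached those of FGF2. LBR rose by 0.92 (standard error 0.18, adjusted p 0.0383). It no longer passed without either -GFs array or without either FGF2 array, and its change ran from 0.83 to 1.01 over the arrays left out.

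**Figure D3:**
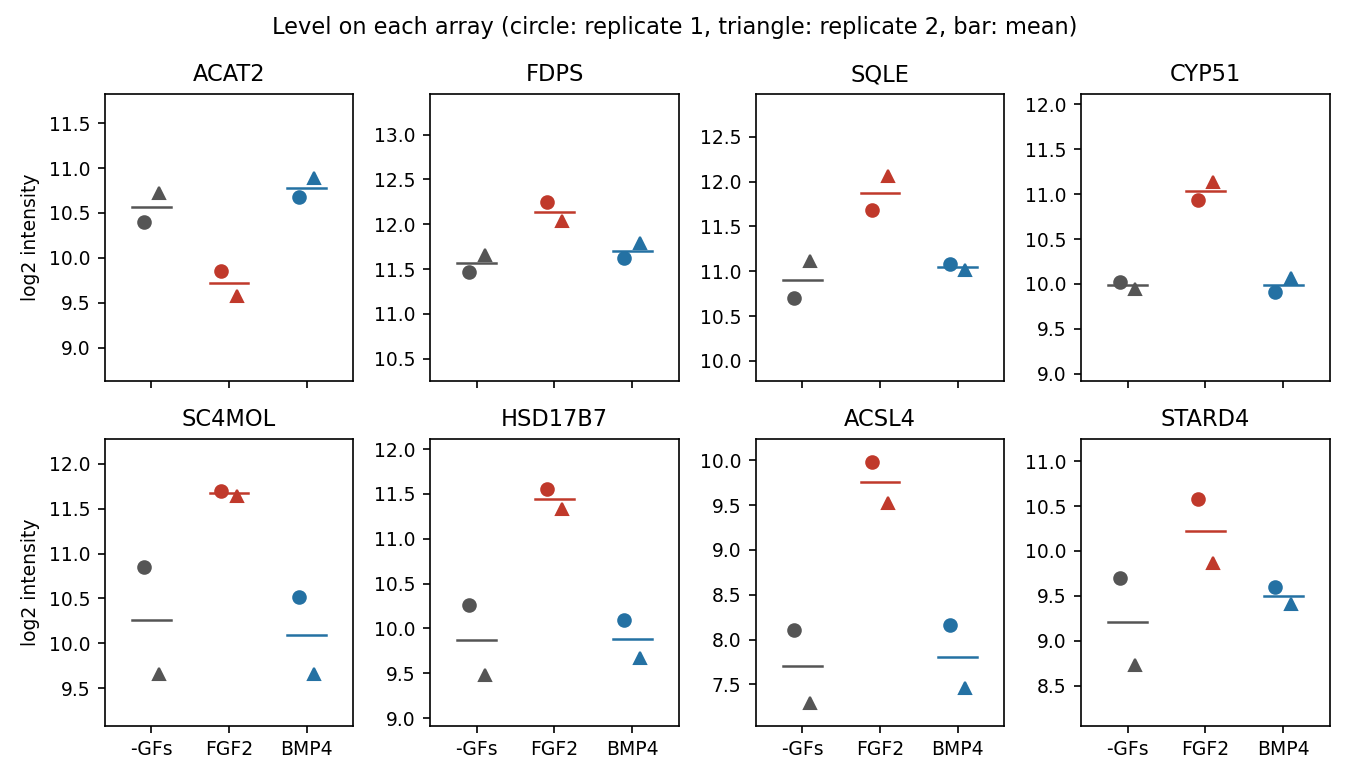
Log2 intensity on each array for 8 members. Circles are replicate 1, triangles replicate 2 and bars group means.

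Among the 7 fatty acid members ACSL3 and ACSL4 rose, which are acyl-CoA synthetases and activate fatty acids, against 6.03% of all genes. ACSL4 was retained through the FGF2 arrays alone, and among genes detected on all 6 arrays only ACSL3 of the 7 rose, so the count is no result for these genes. ACSL1 and ACSL5, synthetases of the other lists named after their values were seen, gave -0.03 and -0.04 (adjusted p 0.97 and 0.919). Their intervals were -0.81 to 0.75 and -0.44 to 0.36, and only that of ACSL1 held the change of ACSL3, 0.67. Genes picked in this way cannot show whether the class rose as a whole, which was not tested. By limma 0 of the 7 fell, against 5.78% of all genes. An unadjusted p under 0.05 in that direction was reached by 0 of the 7 and by 1441 of 11872 genes. Neither count can be set apart from the background. ACSL4, which prefers arachidonic acid, read 8.11 and 7.30 in -GFs, 9.98 and 9.52 in FGF2 and 8.17 and 7.46 in BMP4. The FGF2 arrays were far above the others, and the probe was undetected on -GFs replicate 2 and BMP4 replicate 2. ACSL4 rose by 2.05 (standard error 0.35, adjusted p 0.0235, 4.14-fold), a size that includes a -GFs array at background. Without that array, against -GFs replicate 1 where the probe was detected, the change was 1.65 (0.08), and it was 3.26 with neqc. Its probes disagreed: a probe detected on all 6 arrays gave 0.38 (adjusted p 0.24) and another, detected on 5, gave 0.11 (0.759), so the call rests on 1 of 3 probes.

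ACSL3, a synthetase of lipid droplets, read 8.52 and 8.23 with -GFs, 9.09 and 8.99 with FGF2 and 8.84 and 8.55 with BMP4. The FGF2 arrays were the highest, followed by BMP4 replicate 1. ACSL3 rose by 0.67 (standard error 0.18, adjusted p 0.081, 1.59-fold), and without -GFs replicate 1 or 2 it no longer passed (0.115 and 0.267), nor with median scaling (0.174). ACLY, which makes cytosolic acetyl-CoA, read 13.24 and 13.18 untreated, 13.81 and 13.47 with FGF2 and 13.25 and 13.14 with BMP4, and both FGF2 arrays were highest. Its change was 0.43 (0.03 to 0.83, adjusted p 0.182, 0.0272 with the block), and 0.26 without FGF2 replicate 1.

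ELOVL6, an elongase, read 9.27 and 8.58 in -GFs, 9.48 and 9.28 in FGF2 and 8.86 and 8.78 in BMP4. The FGF2 arrays were barely above -GFs replicate 1, and the change was 0.45 (-0.11 to 1.02, adjusted p 0.308, 0.0351 with the block), from 0.11 without -GFs replicate 2 to 0.80 without -GFs replicate 1. FADS1 and FADS2, desaturases of polyunsaturated fatty acids, gave -0.25 (-0.64 to 0.14) and -0.24 (-0.64 to 0.15), and SCD2, a desaturase of saturated fatty acids, gave 0.25 (-0.30 to 0.80), none of which passed. SCD1, its relative outside the 34, read 11.34 and 11.18 in -GFs, 12.45 and 12.15 in FGF2 and 11.17 and 11.25 in BMP4. Both FGF2 arrays were above all others, and SCD1 rose by 1.04 (standard error 0.17, adjusted p 0.0202). Without either FGF2 array SCD1 no longer passed, and its change ran from 0.90 to 1.18 over the arrays left out.

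Of the sterol carriers, NPC1, which exports cholesterol from lysosomes, read 11.97 and 11.76 in -GFs, 11.27 and 11.23 in FGF2 and 11.87 and 11.60 in BMP4. The lowest arrays were those of FGF2. NPC1 fell by 0.61 (standard error 0.16, adjusted p 0.0803, 1.53-fold down), and a second probe gave nearly the same value (adjusted p 0.0663) while another gave 0.27 (0.354), and with the mean of its probes NPC1 did not pass (-0.32, 0.214). It no longer passed without -GFs replicate 1 (0.216) or replicate 2 (0.145). STARD4, a soluble sterol carrier, read 9.69 and 8.73 in -GFs, 10.58 and 9.87 in FGF2 and 9.60 and 9.41 in BMP4. The FGF2 arrays were highest, with replicate 2 near -GFs replicate 1. The change of 1.01 (0.16 to 1.85, 2.01-fold) had an adjusted p of 0.148 and was called with the block (0.00018). It was 0.53 without -GFs replicate 2, 0.65 without FGF2 replicate 1 and 1.49 without -GFs replicate 1, where it passed (0.0813).

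**Figure D4:**
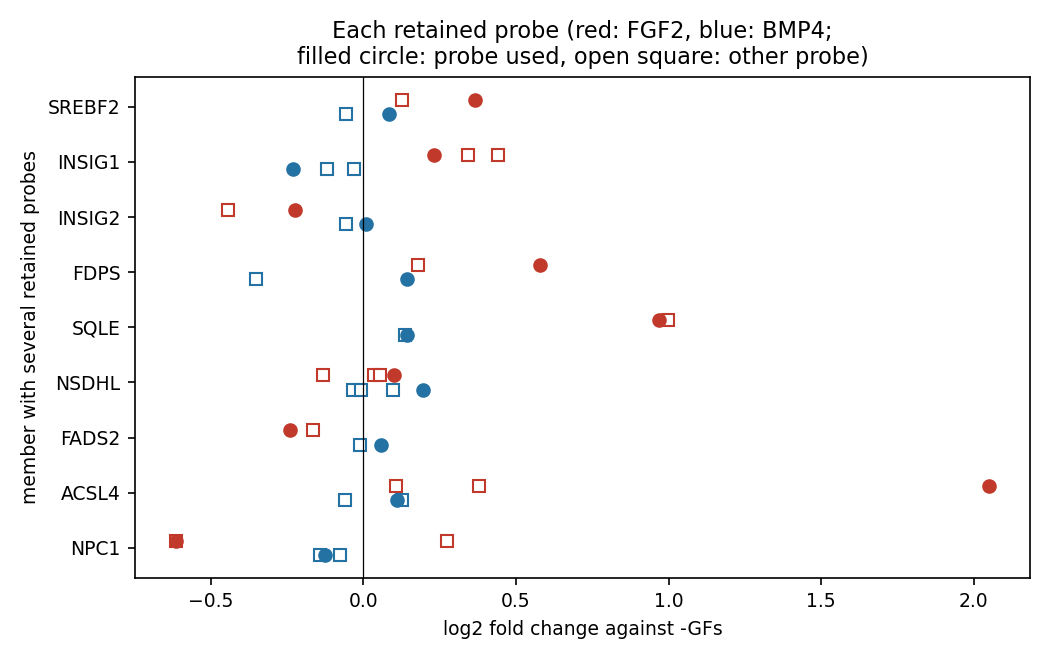
Log2 fold changes of each retained probe for 9 members with several probes. Filled circles are the probe used and open squares the others, with FGF2 in red and BMP4 in blue.

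Outside the 34, lists of 52 other pathway genes had 36 tested, of which 2 rose with FGF2 (LBR and SCD1; 5.56%, against 6.03% of all genes) and 1 fell (2.78%, against 5.78%), and with the block 7 (19.4%, against 18.1%) and 9 (25%, against 19.6%) passed, so those that rose were at the background share. LPIN1, a phosphatidate phosphatase, was the lower one: it read 8.82 and 9.23 in -GFs, 8.45 and 8.13 in FGF2 and 8.82 and 8.90 in BMP4. Both FGF2 arrays were lowest, and LPIN1 fell by 0.74 (standard error 0.20, adjusted p 0.0818). It no longer passed without -GFs replicate 2, without either FGF2 array or without either BMP4 array. The change of LPIN1 ran from -0.94 to -0.53 over the arrays left out, and with neqc it was -1.11. The median change was 0.10 over 14 other sterol genes, -0.15 over 18 other fatty acid and lipid genes and -0.27 over 4 LXR genes, of which 0 passed by limma, 1 had an unadjusted p under 0.05 as lower and 1 passed as lower with the block. Together the 36 had a median of -0.04, near that of all genes.

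With BMP4 no member passed, as was so for nearly all genes. By limma 0 of 30 members passed, against 0.00842% of all genes, or 1 gene, and for 0 members was the unadjusted p under 0.05. The block left 0 passed, against 0.219% of all genes, and an unadjusted p under 0.05 was reached by 2 (ACSL3 and SCD2), when 7.02% of all genes reached it, while Student's t-test gave 0, unadjusted or adjusted. Changes ran from -0.23 for INSIG1 (-0.61 to 0.15) to 0.44 for SCD2 (-0.11 to 0.99), with medians of 0.01 for members and 0.00 for all genes and median sizes of 0.12 and 0.11. Some intervals were narrow, such as -0.36 to 0.37 for CYP51, and others were wide, such as -1.17 to 0.83 for SC4MOL, or held the change seen with FGF2, as -0.55 to 1.14 did for STARD4. With 2 arrays a group, changes could be missed, and a lack of change in the set was not shown.

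FGF2 and BMP4 were also compared directly, since both were set against the same -GFs arrays and their changes are not independent. 4 members were called higher with FGF2, against 2.03% of all genes, and 1 lower, against 1.04%, while 5 passed as higher, against 4.84%, and 1 as lower, against 4.22%. The 4 are ACSL4 (1.94, adjusted p 0.0309), SC4MOL (1.59, 0.0889), HSD17B7 (1.56, 0.0324) and CYP51 (1.04, 0.0191), and SQLE passed under the fold threshold (0.83, 0.0751). ACAT2 was the lower one (-1.07, 0.0304). The counts favour ACSL4, whose probe was retained through the FGF2 arrays alone and was at background on BMP4 replicate 2, while its probe detected on all arrays gave 0.44 (0.206). Against -GFs the same genes gave 2.05, 1.42, 1.57, 1.05, 0.97 and -0.85 with FGF2, and 0.11, -0.17, 0.01, 0.01, 0.14 and 0.22 with BMP4.

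With the block 11 passed as higher, against 16.3%, and 2 as lower, against 17.8%. INSIG1 was among them (0.46, 95% interval 0.08 to 0.84), with an adjusted p of 0.161 without the block and 0.0232 with it. Without the block the adjusted p of the 6 members ran from 0.104 to 0.321 when FGF2 replicate 1 was left out and from 0.177 to 0.387 when FGF2 replicate 2 was, so that 0 passed. Without BMP4 replicate 1 CYP51 (0.107), SC4MOL (0.122), SQLE (0.194) and ACAT2 (0.104) were lost, and without BMP4 replicate 2 ACSL4 (0.128), HSD17B7 (0.144), SC4MOL (0.302), SQLE (0.248) and ACAT2 (0.144).

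The replicates of all groups differed in a shared way, and members did so about as often as other genes. In the fit with treatment and replicate number, 3 members were higher in replicate 2 (MVD, SREBF2 and SCAP; 10%), against 12.8% of all genes, and 7 were lower (23.3%), against 16%: SC4MOL, ACSL4, STARD4, HSD17B7, ELOVL6, SC5D and PMVK. Replicate numbers have no order, so the direction is a description. SC4MOL differed by -0.70 (standard error 0.16, adjusted p 0.00394), with -1.19, -0.06 and -0.85 in -GFs, FGF2 and BMP4, so that its FGF2 arrays were alike. ACSL4 was also lower in replicate 2, with its probe at background on 2 of those arrays, so no size is given. STARD4 differed by -0.62 (0.00301), HSD17B7 by -0.48 (0.0105) and SREBF2 by 0.36 (0.0427). The median was -0.03 for members and 0.02 for all genes. Of the 5 adipocyte markers tested CFD and LPL passed as higher in replicate 2. No size is given for them, since CFD was undetected on replicate 1 of -GFs and BMP4 and LPL on replicate 1 of FGF2. LEP, CEBPA and PPARG did not pass, and PPARG, detected on all 6 arrays, differed by 0.28. Whether these markers bear on the members was not tested.

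**Figure D5:**
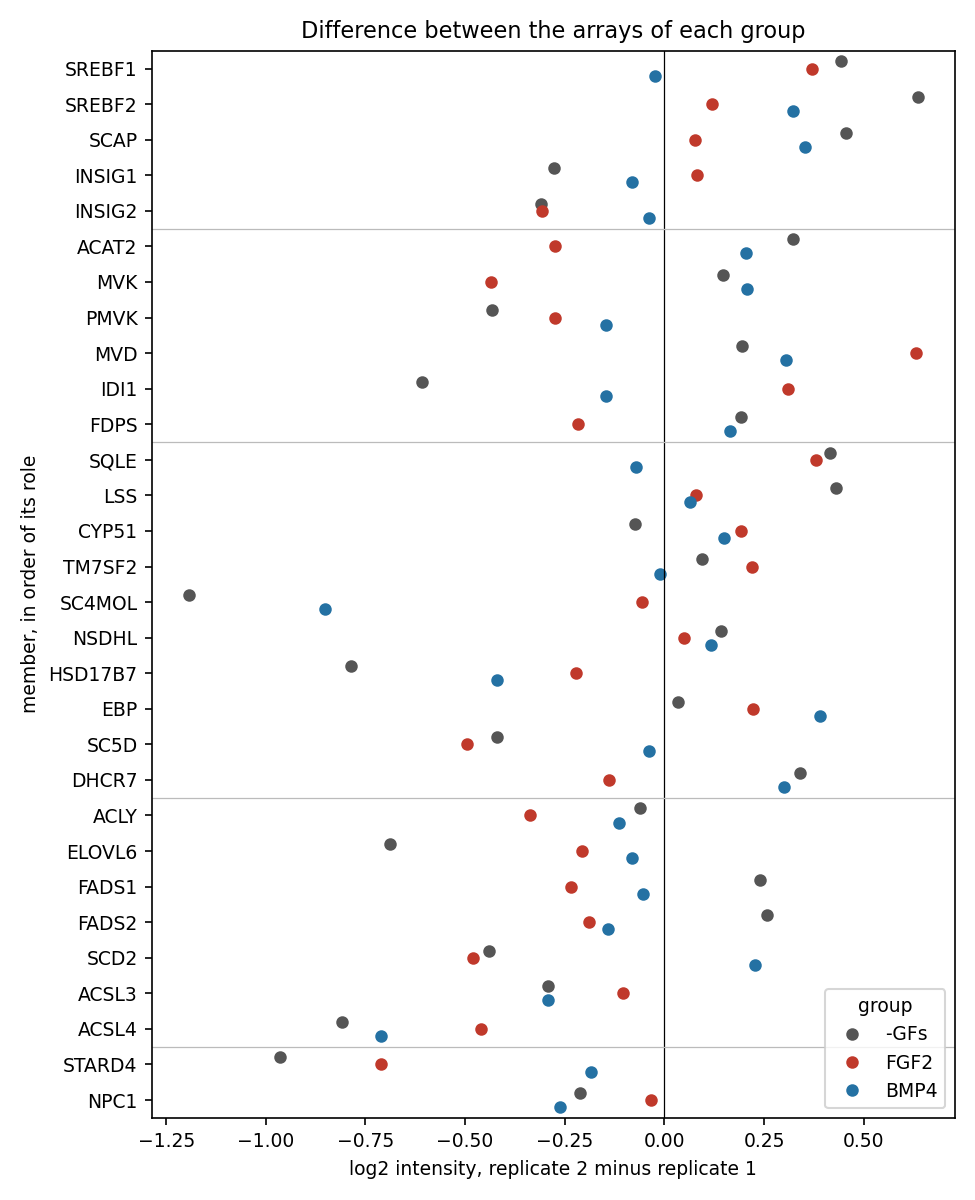
Replicate 2 minus replicate 1 in log2 for 30 members in each of the 3 groups.

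The share of members that fell with FGF2, 6.67%, was near the background of 5.78% and is no result for the set. Protein, sterol and fatty acid content were not measured.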

How the data were processed

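The deposited signal table holds intensity values on a linear scale, not normalized, with a detection p per probe and array, for which the authors name BeadStudio and GenomeStudio 2011.01. Its columns were joined to samples by name, and 9 unnamed columns, filled on 2045 lines, and 6 leftover lines were not used. The cubic spline normalization named by the authors was written anew in R 4.3.3, with 452 quantiles, that is 1 per 100 probes and at least 15, followed by log2. After the detection filter 16111 probes were retained, and for each gene symbol the probe with the largest mean was used.

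Groups were compared with limma 3.58.1 over 3 residual degrees of freedom, and p was adjusted by the Benjamini and Hochberg method over all 11872 genes. Called modulated means an absolute log2 fold change over 1 with an adjusted p under 0.1, and passed, rose or fell means an adjusted p under 0.1 alone. Arrays of the same replicate number correlated in their departures from the group mean, at 0.602 between untreated and FGF2, 0.741 between untreated and BMP4 and 0.579 between the treated arrays, and the labels say that each biological replicate was 1 untreated, 1 FGF2 and 1 BMP4 well, so a fit with replicate number as a block was run beside the fit without it.

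Values on each array are given for the 5 regulators and for members, or genes of the other pathway lists, with an adjusted p under 0.1 between treatments. For members a pass in any comparison of treatments with or without the block was enough. Members that passed only between replicates are named without their array values. The members and the lists were chosen with earlier results of these data known. Probe values were tested over all retained probes. Alternatives tried were quantile, neqc and median scaling, 4 other detection filters, other probe choices, the block, trend and robust options, Student's t-test and leaving out each array. Promoters are those of RefSeq for GRCm38.p6.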

Additional observations from a re-analysis of the deposited data

How the results depend on the processing

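For FGF2 against -GFs, 3 members were called higher without a block; the replicate block gave 5, the block with neqc 6, and the adjusted t-test 0. The 6 that passed as higher became 11 with the replicate block, 4 with median scaling, where ACSL3 and FDPS were lost, 2 with the t-test unadjusted and 0 with it adjusted, and the 2 that passed as lower became 3 with the replicate block and with the block and neqc, as EBP joined, 1 with neqc, 1 with the mean of probes and 0 with the adjusted t-test. FGF2 against BMP4 had 4 called higher and 1 called lower, both 0 by the adjusted t-test. Its 5 that passed as higher were 3 with neqc, 11 with the replicate block, 8 with the block and neqc and 0 by the adjusted t-test, and its 1 that passed as lower was 2 with the replicate block, 2 with the block and neqc and 0 by the adjusted t-test. Of the differences between replicates, the 3 higher were 0 with neqc, with median scaling and with the block and neqc, and the 7 lower were 4 with no detection filter. The block changed no other call, and BMP4 against -GFs gave 0 members under every alternative.

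Leaving out 1 array at a time, FGF2 against -GFs gave 0 to 5 called higher, 0 to 1 called lower, 0 to 6 passed as higher and 0 to 2 passed as lower. FGF2 against BMP4 gave 0 to 4 and 0 to 1 called, and 0 to 5 and 0 to 1 passed. Replicate differences gave 1 to 3 higher and 3 to 7 lower.

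Over all genes FGF2 called 271 higher and 148 lower, against 208 and 209 with median scaling, 432 and 362 with neqc, 623 and 520 with the block and neqc, and 0 and 0 by the adjusted t-test. Passed counts of 716 and 686 became 502 and 910 with median scaling, 2152 and 2326 with the block, 1847 and 1969 with the block and neqc, 0 and 0 by the adjusted t-test, 355 and 288 without -GFs replicate 1, and 348 and 244 without -GFs replicate 2. Without FGF2 replicate 1 or 2 called genes were 122 and 62, or 71 and 35, and passed genes were the same. For members that passed with FGF2 in either fit, and for LBR, SCD1 and LPIN1, no fold change against -GFs reversed, and the other genes were not run through the alternatives one by one. ACSL4 went from 2.05 to 0.38 when only probes detected on all arrays were kept, which selects another probe. FDPS no longer passed with neqc, median scaling, the filter of at least 1 array or the mean of probes.

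The limits are 2 wells a group, 1 cell line and 1 time. Replicates differed in adipocyte genes, and the cause was not tested. The block treats replicate numbers as shared cultures, which rests on the labels, and leaves 2 degrees of freedom. Differences within pairs of the same replicate number were chosen after seeing the data. Leaving out an array leaves its group with 1, so its spread comes from the other groups.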
